A study of Homo sapiens with 6 samples.

Results

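Secreted antiproteases, antimicrobial proteins and clade B serpins form a set of 10 genes, PI3, SLPI, LCN2, RNASE7, SERPINB1, SERPINB2, SERPINB3, SERPINB4, SERPINB5 and SERPINB13, out of 18852 genes named by the array's annotation. They were taken as every probe that the annotation gives to these symbols. PI3 and SLPI entered the set because their signal was higher in LNA-205 arrays, so their differences are given below as a description and without a test. The cells were RWPE-1, a line of prostate epithelium from a human donor that was immortalised and does not form tumours, and RNA was taken 72 h after they were given 100 nM of an oligomer. The LNA-205 group (replicates D, E and F) received an antisense locked nucleic acid against miR-205, and the LNA-Scr group (replicates A, B and C) a scrambled oligomer. Each of the 6 samples was read on 1 single-colour Illumina bead array. The study transfected in triplicate in 1 cell line, and p-values therefore measure the spread between transfections of that line only.

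An antiprotease is a protein that blocks a protein-cutting enzyme. Epithelia secrete small ones onto their surface, where elafin (PI3) and SLPI, both built from WAP domains, inhibit neutrophil elastase and also act against microbes. Clade B serpins are larger inhibitors that stay mostly inside the cell and trap a protease by offering it a bait loop. LCN2 and RNASE7 act on microbes more directly, the first by binding the siderophores with which bacteria take up iron and the second as a ribonuclease that damages bacterial membranes. Many of these genes are made by squamous and inflamed epithelium, and SERPINB5 (maspin) is a known product of basal prostate epithelium.

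The microRNA that LNA-205 is directed against is shown first, since silencing it is the one planned difference between the groups. Its mature sequence is given from RefSeq (GRCh38.p14, chr1:209432166-209432187, plus strand), and the capitals mark the seed, bases 2 to 8, by which a microRNA recognises its targets.
hsa-miR-205-5p: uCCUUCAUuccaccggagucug
The sequence of the LNA-205 oligomer is not given in the labels. Arrays of this kind do not read a mature microRNA, so silencing itself was not measured here.

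Of the 10 genes, 9 had at least 1 probe in the annotation, SERPINB3 had 2, and SERPINB2 (PAI-2, an inhibitor of urokinase) had none and was not analysed here. A probe was used when it stood above the negative control beads, at a detection p under 0.01, on at least 3 of the 6 arrays. This left 7 genes with 1 probe each, and each of these 7 was above background on all 6 arrays, so none entered through 1 group alone. Levels below are normalized log2 intensities, on which a step of 1 is a doubling, and all differences are LNA-205 minus LNA-Scr. Between 12585 and 14195 probes were above background on an array. The basal keratins KRT5 and KRT14, markers of the labelled epithelial cell, were above background on all 6 arrays, and all 10 basal markers with a probe passed the filter.

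All 7 measured genes had a higher mean in LNA-205, with differences between 0.25 (RNASE7) and 0.83 (PI3) and a median of 0.31. The median over all 10803 features tested was near 0, and 49.8% of them had a higher mean in LNA-205. Since PI3 and SLPI were chosen for this direction, the count describes the set and supports nothing about it. A level in a culture is an average over its cells, so more cells of a kind and more RNA per cell cannot be told apart. None of the other 5 genes (LCN2, RNASE7, SERPINB1, SERPINB5 and SERPINB13) passed limma with Benjamini-Hochberg adjustment at 0.05. These were not named for their direction, but the whole set was drawn up with earlier results of these data known. Their p-values are therefore not those of an unselected list. Over all features 1 passed, or 0.00926%, and 0% passed in the higher direction. At an unadjusted limma p under 0.05 there was 1 of these 5, SERPINB5, against 6.27% of all features in either direction and 3.19% in the higher one. The 1 feature past the adjusted threshold was MCCC2, a subunit of a leucine breakdown enzyme, which was lower in LNA-205 (difference −1.72, SE 0.16, limma adjusted p = 0.0445).

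PI3 encodes elafin, the secreted inhibitor of neutrophil elastase and proteinase 3. Its probe read deposited intensities of 8272.9, 9244.1 and 7301.3 in LNA-205 replicates D, E and F. The values were 4364.8, 4410.8 and 5649.2 in LNA-Scr replicates A, B and C. Deposited intensities here and below are on the linear scale, converted from the deposited log2 values. After normalization the log2 values were 12.92, 13.12 and 12.92 in LNA-205 D, E and F, against 12.15, 11.86 and 12.47 in LNA-Scr A, B and C. The groups did not overlap: the lowest LNA-205 array stood 0.45 above the highest LNA-Scr array. The means were 12.99 ± 0.12 in LNA-205 and 12.16 ± 0.30 in LNA-Scr (SD, n = 3 each), a difference of 0.83 (SE 0.16) or 1.77-fold. It was the feature with the 10th largest positive difference of the 10803. The spread among LNA-Scr arrays was wider than among LNA-205 arrays, with B lowest and C highest.

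SLPI encodes the secretory leukocyte protease inhibitor, a relative of elafin that blocks neutrophil elastase and cathepsin G. Its gene neighbours that of PI3 in the RefSeq gene table, with the semenogelin genes SEMG1 and SEMG2 between them. Deposited intensities were 1168.1, 1207.2 and 1054.4 in LNA-205 D, E and F, against 660.2, 834 and 1023.2 in LNA-Scr A, B and C. The normalized log2 values were 9.86, 9.96 and 9.91 in LNA-205, against 9.10, 9.15 and 9.77 in LNA-Scr. The LNA-205 arrays lay close together, while LNA-Scr C stood well above A and B and only 0.09 below the lowest LNA-205 array. The means were 9.91 ± 0.05 in LNA-205 and 9.34 ± 0.38 in LNA-Scr (SD, n = 3 each), a difference of 0.57 (SE 0.18) or 1.48-fold. Without LNA-Scr replicate C the difference was 0.78, and without LNA-Scr replicate A it was 0.45.

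LCN2 (lipocalin-2) captures bacterial siderophores and is made by epithelium and by neutrophils. Its log2 values were 9.59, 9.16 and 9.83 in LNA-205 D, E and F, against 9.22, 8.92 and 9.30 in LNA-Scr A, B and C. LNA-205 E lay among the LNA-Scr arrays, so the groups overlapped. The difference was 0.38 (SE 0.18, limma adjusted p = 0.793), with a 95% interval of −0.04 to 0.81. It was 0.56 without LNA-205 replicate E and 0.23 without LNA-205 replicate F.

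RNASE7, a secreted ribonuclease that kills bacteria at skin and urinary tract surfaces, had log2 values of 8.84, 8.61 and 9.08 in LNA-205 D, E and F. The LNA-Scr values were 8.53, 8.57 and 8.68 in A, B and C. Again LNA-205 E lay within the LNA-Scr range, and D and F lay above it. The difference was 0.25 (SE 0.14, limma adjusted p = 0.806), with a 95% interval of −0.06 to 0.56. Its lowest value with 1 array left out was 0.13, without LNA-205 replicate F.

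**Figure D1:**
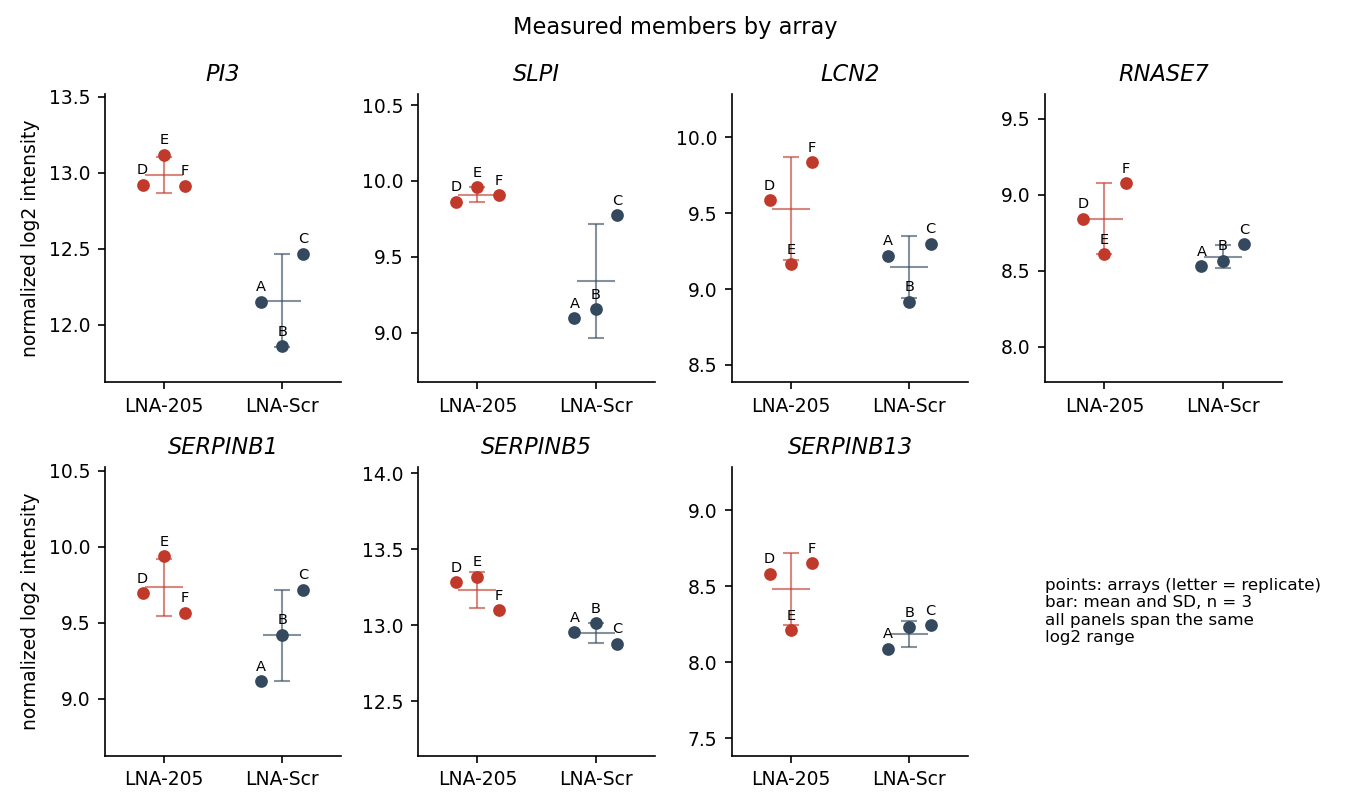
Normalized log2 intensity (vertical axis) of the 7 measured genes on each array, with LNA-205 at left and LNA-Scr at right of each panel. Points are arrays with their replicate letter, and bars are the mean and SD of 3 arrays. PI3 and SLPI, which were chosen for their higher signal in LNA-205, and SERPINB5 have groups that do not overlap. Over all features 6.38% have such groups in the higher direction. LNA-205 E drops into the LNA-Scr range for LCN2, RNASE7 and SERPINB13.

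SERPINB5 (maspin), a clade B serpin that does not inhibit proteases and is known as a tumour suppressor of epithelium, had log2 values of 13.29, 13.32 and 13.10 in LNA-205 D, E and F. The LNA-Scr values were 12.96, 13.01 and 12.88 in A, B and C. The groups did not overlap, with a gap of 0.09 between LNA-205 F and LNA-Scr B. The difference was 0.29 (SE 0.11, limma adjusted p = 0.758), or 1.22-fold, with means of 13.24 ± 0.12 in LNA-205 and 12.95 ± 0.07 in LNA-Scr (SD, n = 3 each). Groups without overlap occurred for 12.2% of all features, 6.38% in the higher direction, and SERPINB5 was the 1 of the 5 genes not chosen on the contrast that had them.

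SERPINB13 (headpin), an inhibitor of lysosomal cysteine proteases made in stratified epithelium, had log2 values of 8.58, 8.21 and 8.65 in LNA-205 D, E and F. The LNA-Scr values were 8.09, 8.23 and 8.24 in A, B and C. LNA-205 E was below LNA-Scr B and C, while D and F were above all 3 LNA-Scr arrays. The difference was 0.29 (SE 0.14, limma adjusted p = 0.793), with a 95% interval of −0.02 to 0.61.

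SERPINB1, the leukocyte elastase inhibitor, blocks neutrophil elastase, cathepsin G and proteinase 3 from within the cell. Its log2 values were 9.69, 9.94 and 9.56 in LNA-205 D, E and F, against 9.12, 9.42 and 9.72 in LNA-Scr A, B and C. LNA-Scr C stood above LNA-205 D and F, and the groups overlapped. The difference of 0.31 (SE 0.17, limma adjusted p = 0.810) had a 95% interval of −0.08 to 0.71, and it was 0.16 without LNA-Scr replicate A and 0.46 without LNA-Scr replicate C.

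SERPINB3 and SERPINB4, the squamous cell carcinoma antigens, are close paralogs, of which the first is known to inhibit cysteine proteases and the other chymotrypsin-like serine proteases. Neither passed the detection filter. The SERPINB4 probe read deposited intensities of 154.7, 192.6 and 196.3 in LNA-205 D, E and F, against 200.4, 172.8 and 170.1 in LNA-Scr A, B and C, and on none of the 6 arrays was it well above background. One SERPINB3 probe (ILMN_2120222) likewise stayed at background on all 6 arrays. The other (ILMN_1703855) passed on LNA-205 E and LNA-Scr B and on no other array. Its intensities were 295.1, 378 and 287.8 in LNA-205 D, E and F, against 242, 412.7 and 368.7 in LNA-Scr A, B and C. The groups overlapped for these probes, and no fold is given. A probe for either gene may also read the transcript of the other, and this was not tested.

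How alike the pair is can be seen in the 250 bases before their RefSeq transcript starts (GRCh38.p14, minus strand), shown because the same letters stand before both genes over nearly the whole window. SERPINB3 lies at chr18:63661894-63662143 and SERPINB4 at chr18:63644257-63644506. Capitals mark the 3 bases that differ. Counted backwards from the transcript start with −1 as the nearest base, and with the SERPINB3 base first, these are G-125A, G-50A and C-23T.
SERPINB3: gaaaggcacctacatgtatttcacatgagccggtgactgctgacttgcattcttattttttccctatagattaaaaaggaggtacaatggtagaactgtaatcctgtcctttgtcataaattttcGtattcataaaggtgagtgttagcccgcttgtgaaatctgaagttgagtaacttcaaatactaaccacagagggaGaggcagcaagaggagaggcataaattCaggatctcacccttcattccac
SERPINB4: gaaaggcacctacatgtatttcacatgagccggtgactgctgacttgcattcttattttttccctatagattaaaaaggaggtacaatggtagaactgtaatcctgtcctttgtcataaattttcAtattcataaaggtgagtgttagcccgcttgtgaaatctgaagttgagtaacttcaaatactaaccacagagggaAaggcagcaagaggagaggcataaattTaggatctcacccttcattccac
The remaining 247 bases, or 98.8%, are the same. Both transcripts were near background in these cells.

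The 7 measured genes fell into different patterns across the replicates of a group. LNA-205 E was the highest LNA-205 array for PI3, SLPI, SERPINB1 and SERPINB5, and the lowest for LCN2, RNASE7 and SERPINB13. Over all features E was highest in 31.0% and lowest in 31.8%. For LCN2, RNASE7 and SERPINB13, LNA-205 E deviated from the LNA-Scr mean by 0.02 in each case, and LNA-205 F by 0.69, 0.49 and 0.46, in the order of the genes. Among LNA-Scr arrays, C was the highest for 6 of the 7 genes, all but SERPINB5, against 36.1% of all features. With C left out, the difference of PI3 was 0.98. The files read here hold no slide or scan record by which the arrays could be split.

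**Figure D2:**
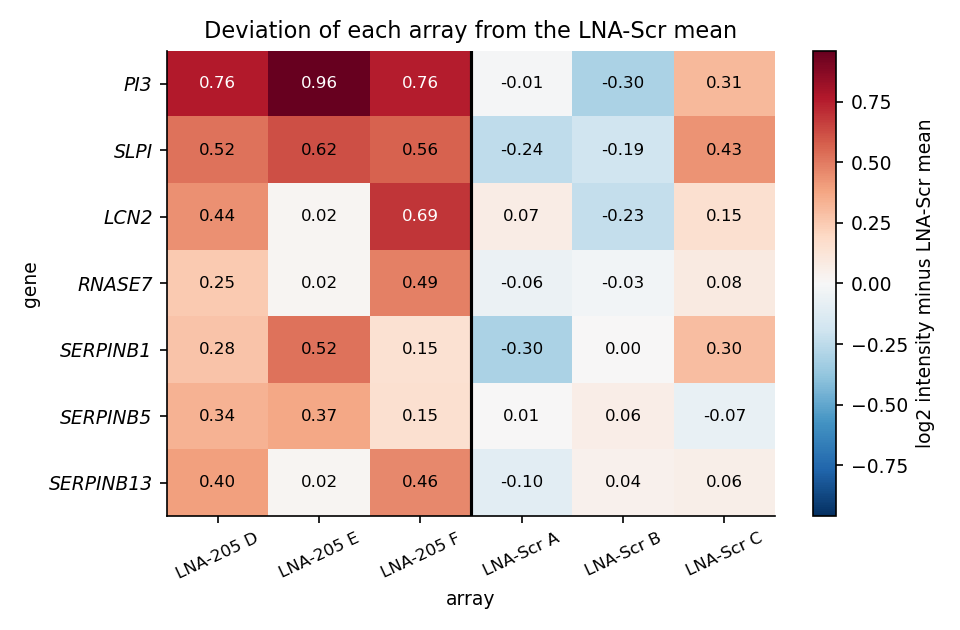
Deviation of each array from the LNA-Scr mean of the same gene (colour and number, log2 units), with genes in rows and the 3 LNA-205 arrays left of the 3 LNA-Scr arrays. LNA-205 E is near 0 for LCN2, RNASE7 and SERPINB13 and reaches 0.96 for PI3, and LNA-Scr C is above 0 in every row but SERPINB5.

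Across the 6 arrays SLPI had a Pearson correlation of 0.927 with PI3, and the other 5 measured genes had 0.558 (SERPINB13) to 0.746 (SERPINB1 and SERPINB5). The named genes most like PI3 over the 6 arrays were PSMC1 (an ATPase subunit of the proteasome) with 0.985, UTP25 (a ribosome assembly factor) with 0.984 and LIN54 (a DNA-binding subunit of cell cycle repressor complexes) with 0.983. These correlations are descriptions over 6 arrays that fall into the 2 groups, and PI3 itself was chosen for its separation of them.

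The other genes of antiprotease and antimicrobial defence were read from lists, chosen like the set itself with earlier results of these data known. In these lists 59 genes were measured and none passed limma at an adjusted p under 0.05. At an unadjusted limma p under 0.05, 10 of the 59 were higher and 2 lower, where all features gave 3.19% higher and 6.27% in either direction. The 10 include SPINK6, which passed the detection filter through LNA-205 alone. Of the 7 remaining clade B serpins 2 were measured, both with lower means in LNA-205. SERPINB8, an inhibitor of furin, averaged 9.57 ± 0.03 in LNA-205 and 9.83 ± 0.12 in LNA-Scr (SD, n = 3 each). The difference was −0.27 (SE 0.10, limma adjusted p = 0.767), without overlap, as for 12.2% of all features in either direction. A second detected SERPINB8 probe gave 0.02. SERPINB7 differed by −0.18 (SE 0.15, limma adjusted p = 0.881) and was above background on 1 LNA-205 and 2 LNA-Scr arrays. In RefSeq gene order on chromosome 18 the measured serpins run SERPINB5, SERPINB13, SERPINB7 and SERPINB8, and the first 2 had higher and the last 2 lower means in LNA-205. The third measured member of the clade with a higher mean, SERPINB1, lies on chromosome 6.

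Among 27 other genes listed as protease inhibitors, not all of them secreted, 11 were measured. Of these, 7 had a higher and 4 a lower mean in LNA-205, and the median difference was 0.01. SPINK6, a Kazal-type inhibitor of kallikreins, was above background on 3 LNA-205 and 0 LNA-Scr arrays. Having passed the filter through LNA-205 alone, it is given without a test. As normalized here, the LNA-205 mean was at least 1.33-fold higher, with measured means of 7.74 in LNA-205 and 7.01 in LNA-Scr. The groups overlapped, since LNA-Scr C (7.66) stood above LNA-205 F (7.52). The measured difference was 0.73, but 0.34 without background correction and 0.35 with the authors' values. Both are below that bound, which thus holds for this normalization only. TIMP2, a metalloproteinase inhibitor, differed by 0.41 (SE 0.10, limma adjusted p = 0.609), but its second detected probe gave −0.30. The lower values included TFPI2 at −0.14 (SE 0.11), the cystatin CSTB at −0.08 (SE 0.11) and the serpin SERPINE2 at −0.07 (SE 0.11).

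Among 25 other antimicrobial effectors, 7 were measured, 6 of them with a higher mean in LNA-205, and the median difference was 0.45. S100A7 (psoriasin) had log2 values of 8.56, 8.77 and 8.36 in LNA-205 D, E and F, against 7.72, 7.94 and 7.96 in LNA-Scr A, B and C. This is a difference of 0.69 (SE 0.13, limma adjusted p = 0.426), and of 0.43 without background correction or with the authors' values. S100A8, a subunit of calprotectin, differed by 0.75 (SE 0.17, limma adjusted p = 0.550). The groups of S100A7 and S100A8 did not overlap, and 4 of the 7 measured genes had such groups in the higher direction. Over all features 6.38% had them in that direction. ADM (adrenomedullin) differed by 0.08 (SE 0.17) and ANG, a ribonuclease like RNASE7, by −0.10 (SE 0.12), with 0.16 from a second ANG probe. The defensins DEFB1 and DEFB4A are among the 18 genes of this list without a measured probe.

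The proteases that such inhibitors face were read next. Of 27 genes, 12 were measured, 7 higher and 5 lower in mean, with a median of 0.06. KLK5, a serine protease of stratified epithelium, had log2 values of 10.43, 10.26 and 10.35 in LNA-205 D, E and F, against 9.65, 9.39 and 9.82 in LNA-Scr A, B and C, a difference of 0.72 (SE 0.13, limma adjusted p = 0.426). A second KLK5 probe gave 0.40 (SE 0.32). KLK10, a related kallikrein, differed by 0.69 (SE 0.26) with overlap, by 0.41 without LNA-Scr replicate C and by 0.35 without background correction. The difference of PLAU (urokinase) was 0.20 (SE 0.11). CTSC, which activates neutrophil serine proteases, differed by −0.11 (SE 0.10) and PRSS8 (prostasin) by −0.15 (SE 0.15). ELANE, the neutrophil elastase that PI3, SLPI and SERPINB1 are known to block, was above background on 0 of the 6 arrays.

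Of 36 regulators known to act on such genes in epithelium, 27 were measured, 16 higher and 11 lower in mean, with a median of 0.03. CEBPA, which drives differentiation in epithelium and myeloid cells, had log2 values of 7.79, 8.07 and 8.03 in LNA-205 D, E and F, against 7.19, 7.38 and 7.25 in LNA-Scr A, B and C. It differed by 0.69 (SE 0.12, limma adjusted p = 0.426) and was above background on 2 of the 3 LNA-Scr arrays. Without background correction and with the authors' values the CEBPA difference was 0.36. IL1RN, the interleukin-1 receptor antagonist, differed by 0.68 (SE 0.15, limma adjusted p = 0.550). Its difference was 0.46 without background correction or with the authors' values, and 0.55 without LNA-Scr replicate B. FOSL1, an AP-1 subunit, had a lower mean in LNA-205, with a difference of −0.34 (SE 0.10, limma adjusted p = 0.691). IL1A differed by −0.14 (SE 0.12) and JUND, another AP-1 subunit, by 0.03 (SE 0.15).

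**Figure D3:**
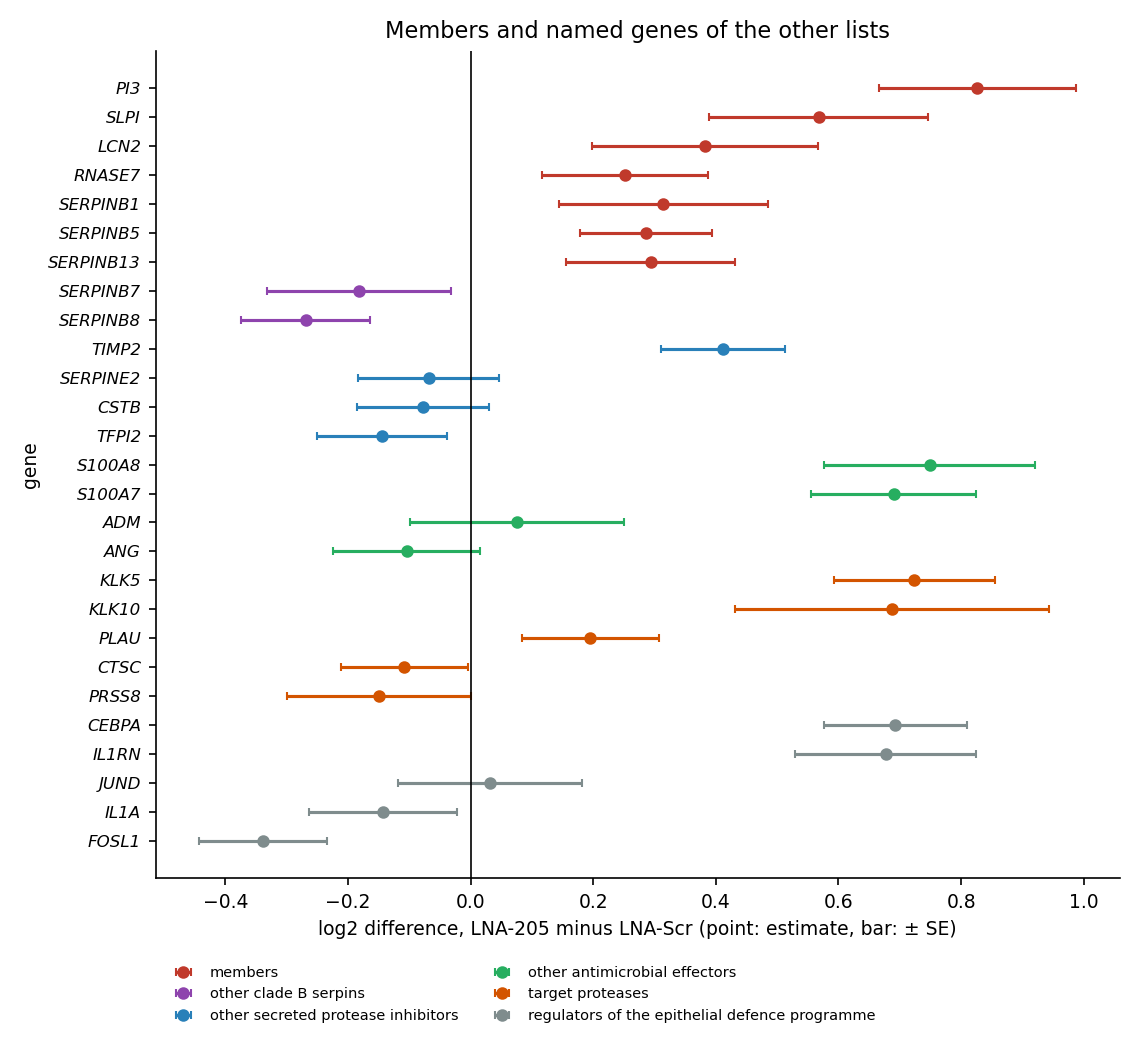
Log2 difference of LNA-205 minus LNA-Scr (horizontal axis, point and SE) for the 7 measured genes at the top and for the named genes of the 5 other lists, coloured by list. The list named there as other secreted protease inhibitors also holds genes whose products are not secreted. SPINK6 is left out because its fold is a lower bound. The 7 genes lie between 0.25 and 0.83, and the 2 remaining clade B serpins lie below 0.

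The RefSeq promoter table (GRCh38.p14, 250 bases before to 50 after the transcript start) held 8 of the 10 genes, all but PI3 and SLPI. It was searched on both strands for TGANTCA, which covers the AP-1 site, since AP-1 subunits were among the regulators read above. The letters were found in 5 of the 8 promoters, against 7.71% of the 35116 promoters in the table. Each match is shown in capitals with its surroundings, plus strand, and the 5 genes include SERPINB2, which was not measured.
LCN2: cttggcaaagaaTGAATCAacccaccctag
RNASE7: gaggcatgaaccTGATTCAtttcctgatcc
SERPINB2: tgagtaaaatgtTGAATCActcaaaggaca
SERPINB5: gtaacttcagccTGAATCAtttctttcaat
SERPINB13: ctcgagagatgcTGACTCAgttggtctggg
The windows lie at chr9:128149389-128149418, chr14:21042248-21042277, chr18:63887591-63887620, chr18:63476800-63476829 and chr18:63587244-63587273, in the same order. The motif begins 52 (LCN2), 102 (RNASE7 and SERPINB2), 146 (SERPINB5) and 87 (SERPINB13) bases before the start. Only SERPINB13 holds the usual AP-1 letters TGACTCA, which 4.95% of all promoters hold on either strand, and the other 4 have A or T in the middle. C/EBP letters, TTGCNNAA, were found for LCN2 and RNASE7, against 10.5% of all promoters. An NF-kB pattern (GGG, any 2 bases, TTTCC) was found for none of the 8, against 1.91%. Other forms of the NF-kB site, which this pattern misses, were not searched. The matches found describe letters and do not show binding. Genes of the list with and without a match had positive differences, SERPINB1 being the measured one without either AP-1-like or C/EBP letters.

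LCN2, SLPI and SERPINB1 are also made by neutrophils and other myeloid cells, whose markers were read in the same arrays. Of 15 such markers 2 were measured, CD68 and CD14, and 12 were above background on 0 of the 6 arrays, among them the defining genes PTPRC, ITGAM, MPO, ELANE and CEACAM8. CD68, a lysosomal protein, differed by 0.20 (SE 0.11), with 0.01 from a second probe, and CD14 by 0.31 (SE 0.17), neither past the limma threshold. The CD14 difference was 0.14 without LNA-Scr replicate B, 0.48 without LNA-Scr replicate C and 0.16 without background correction. The groups of the brighter CD68 probe did not overlap, as for 12.2% of all features in either direction. The summed linear level of CD68 and CD14 ran from 4129 to 4688 over LNA-205 arrays and from 3520 to 4068 over LNA-Scr arrays, without overlap. That CD68 probe makes up most of the sum, with a mean log2 value of 12.01 in LNA-205 against 7.93 for CD14. The part of these markers in the differences of the 7 genes was not tested. Of 11 stromal markers 1 was measured, ACTA2 (difference 0.16, SE 0.13), with sums of 494 to 591 in LNA-205 and 424 to 537 in LNA-Scr. Of 12 luminal markers 3 were measured, KRT8 (0.04, SE 0.11), SLC45A3 (−0.10, SE 0.13) and KRT18 (−0.28, SE 0.18, with 0.05 from a second probe), with sums of 3123 to 3206 in LNA-205 and 2910 to 3465 in LNA-Scr. The 10 measured basal markers summed to 97143 to 104264 in LNA-205 and 93818 to 99297 in LNA-Scr, sums to which the keratins KRT5 (difference 0.12, SE 0.10) and KRT14 (0.03, SE 0.10) add most. Of these 10, 4 had a higher and 6 a lower mean in LNA-205, with a median difference of −0.02. Groups did not overlap for 2 of the higher ones, TRIM29 (0.26, SE 0.10) and KRT5, and for 1 of the lower ones. Over all features 12.2% had such groups in either direction. The lower one was EGFR, a growth factor receptor, at −0.14 (SE 0.10), with 0.03 from a second probe.

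Of the 12 alternatives tried, 4 could not move these genes, because each has 1 probe that is above background on all 6 arrays and the alternatives concern filters and several probes of a gene. Leaving out 1 array cannot turn the direction where groups do not overlap, as for PI3, SLPI and SERPINB5. For LCN2, RNASE7, SERPINB1 and SERPINB13, whose groups overlap, the lowest differences with 1 array left out were 0.23, 0.13, 0.16 and 0.21, in the order of the genes. PI3 ranged from 0.68 to 0.98 and SLPI from 0.45 to 0.78 with 1 array left out. Without background correction the difference was 0.19 for SERPINB13 and 0.46 for SLPI. RNASE7 was lowest among processing alternatives with the authors' processed values (0.17). With 1 array left out, SERPINB5 had the narrowest range of the 7, 0.24 to 0.35.

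**Figure D4:**
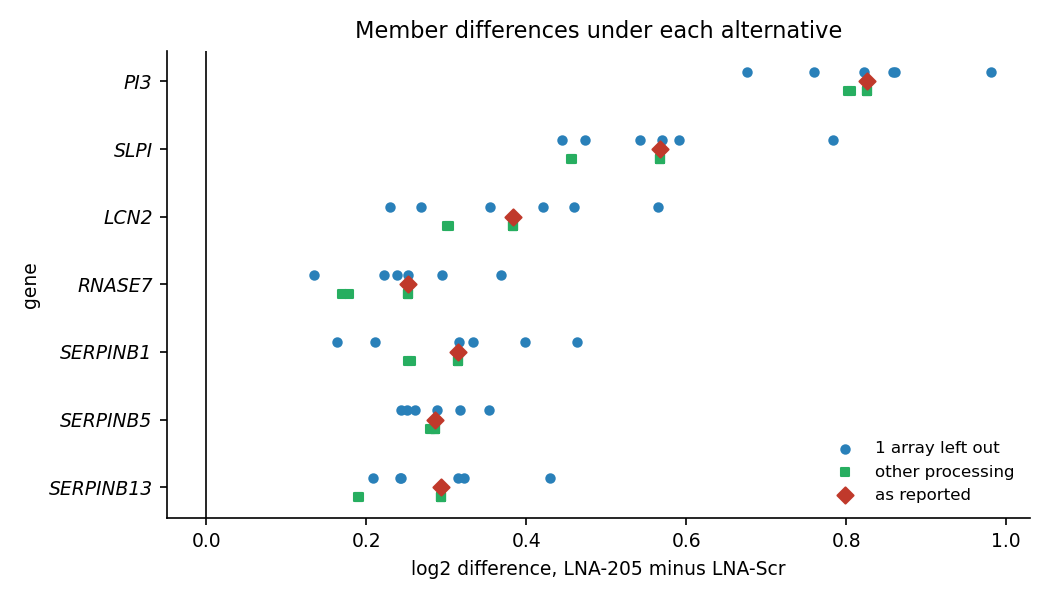
Log2 difference of LNA-205 minus LNA-Scr (horizontal axis) for the 7 measured genes as reported (diamonds), with 1 array left out (circles) and under other processing (squares). The 4 alternatives that cannot move these genes lie under the diamonds, and the points run from 0.13 for RNASE7 without LNA-205 F to 0.98 for PI3 without LNA-Scr C.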

How the data were processed

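Array data of 2 groups were analysed at the probe level, with groups and replicate letters taken from the sample titles. The deposited log2 values are unnormalized probe intensities, with 1 detection p-value column per sample per the file headers. Log2 values processed by the authors served as an alternative. They keep the order of each array's unnormalized values, and those of LNA-205 E equal its unnormalized values for all 48799 probes. How they were normalized is not stated in the sources used here, and the lumi package is named per the submitters' processing notes without a role. Per the labels, biotinylated cRNA was made from Trizol-extracted RNA.

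Of 48803 rows, 4 held no values. Intensities were corrected and quantile normalized with limma's neqc (offset 16, negative controls inferred from detection p-values). Probes with a detection p under 0.01 on at least 3 arrays were kept (13423), and for each gene the brightest was used, giving 10803 features (8952 genes and 1851 unnamed probes). Symbols came from the platform annotation, updated through RefSeq gene identifiers. The array files name no genome build. RefSeq positions were used for gene order and for the sequences shown, which are on GRCh38.p14. Features were fitted with limma 3.58.1 in R 4.3.3 (lmFit and eBayes, two-sided), with Benjamini-Hochberg adjustment over all features at 0.05. The fit was tested on simulated data. For SPINK6, the fold is the LNA-205 mean against, per LNA-Scr array, the higher of the probe's value and the lowest value above background.

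Members and lists were chosen with earlier results of these data known. Named genes are all members, from each list the 2 with the smallest p per direction and the brightest, the 2 brightest of each marker list, the 3 most correlated with PI3, and any called feature. Other genes named were chosen after their values were seen. Protein sequences were not used here. The number of arrays, 3 per group, limits the precision. Alternatives were no background correction, the authors' values, other detection filters, other uses of a gene's probes, and leaving out each array.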

Additional observations from a re-analysis of the deposited data

How the results depend on the processing

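The count of features past the threshold was 1 with neqc, without background correction, with the authors' values and with probes detected on all 6 arrays. It was 0 without a detection filter, with probes of a gene averaged, and with all probes kept apart, and between 0 and 0 with 1 array left out. MCCC2, the feature lost, differed by −1.81 to −1.59 with 1 array left out and by −1.24 without background correction (limma adjusted p = 0.000832) or with the authors' values (0.000592). Its limma adjusted p was 0.180 without the filter, 0.0512 with probe means, 0.0646 with probes kept apart, and 0.125 to 0.455 with 1 array left out. The cause was not tested. None of LCN2, RNASE7, SERPINB1, SERPINB5 and SERPINB13 and none of the 59 listed genes passed under any of the 12 settings. Some differences near 0 changed sign. JUND gave −0.0064 with the authors' values and ANG 0.027 with probe means. With 1 array left out the ranges were −0.091 to 0.18 for ADM, −0.13 to 0.14 for JUND, −0.026 to 0.078 for KRT14, −0.18 to 0.0022 for SLC45A3 and −0.028 to 0.096 for KRT8. No paired analysis was possible because no replicate letter occurs in both groups. The low signal of SERPINB3 and SERPINB4 over background limits any statement on them.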

Other observations

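The last 12 bases before the RefSeq transcript starts of both SERPINB3 and SERPINB4 read ccttcattccac, the same letters as bases 2 to 13 of miR-205-5p written as DNA, in the same sense. Of 35116 promoters in the table, 9 (0.0256%) hold any 12 bases of miR-205-5p in that sense, and SERPINB3 and SERPINB4, near-copies of each other, are 2 of them. The longest such stretch in the other 6 promoters of the set was 7 bases, in LCN2. The 12 bases before SERPINB3 and SERPINB4 are letters of the microRNA itself, not the complementary letters with which it would pair. The stretch lies outside the annotated transcripts, both of which were near background on the arrays. It was noticed while the sequences were read, and no consequence for expression was tested.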
